A study of Mus musculus with 6 samples.

Results

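The 10 genes listed here, which monocytes and macrophages use (Csf1r, Lyz2, Cst3, Ctss, Cybb, Mpeg1, Tgfbi, Cd300a, Ly86 and Irf8), were followed through cultures of T-cell progenitors. They were taken by name, as 10 of the 28048 genes in the count tables. For each gene, the unique molecular identifiers (UMIs, each marking 1 captured RNA molecule) were summed over the cells of a library and over each of its 3 reverse-transcription wells. Barcodes entered the sums if 200 or more genes were seen, no more than 2000 UMIs were counted and mitochondrial UMIs did not exceed 30%, which left 60671 cells.

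The cells came from 6 libraries of mouse bone marrow progenitors, re-cultured for 4 days on OP9-DL1 stromal cells, a marrow stromal line that presents the Notch ligand DL1 and so drives T-cell development. The methods of the study also give added cytokines for these cultures, namely Flt3 ligand, stem cell factor and interleukins for T-cell, ILC and NK development. Each genotype, WT (Bcl11b YFP/YFP) and ΔTE (homozygous for Bcl11b YFP-ΔEnh, which lacks the timing enhancer of Bcl11b), was started from 3 sorted stages. These were DN1 (CD44+ CD25-), DN2a (CD44+ CD25+ and still negative for the Bcl11b reporter) and DN2b (CD44+ CD25+ and reporter positive). Both genotypes are C57BL/6 and carry the yellow fluorescent reporter at Bcl11b, so the WT animals are reporter mice and not unmodified mice. Marrow was taken from mice aged 2 to 4 months, male and female, and cells of 6 to 8 mice per genotype were pooled before 1 library per condition was made. Marrow progenitors were enriched for CD117 (Kit) and first cultured on OP9-DL1 cells, and the stages were sorted from those cultures. The sort used antibodies against CD11b, CD11c, Gr-1 and other lineage markers. Such a gate takes out mature myeloid cells before the 4-day re-culture starts. With 1 library per condition there was no test between conditions, intervals are 95% exact intervals that cover counting error only, and the 3 wells of a library are technical parts of 1 culture.

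The 6 libraries kept 3401 to 19489 cells and 1717136 to 9048728 UMIs, with a median of 386 to 485 UMIs per cell. No barcode name was shared between libraries. WT DN2a stood apart, with a median of 13.3% mitochondrial UMIs against 20.9% to 23.9% in the others, and the mitochondrial limit removed 2.59% of its cells against 26.8% to 56.6% elsewhere. Cells with UMIs of 3 or more of 16 stromal genes made up 1.32% to 8.84% of a library. They were unevenly spread over the wells of ΔTE DN2a, at 12.6% in well 2 against 2.52% and 1.47% in wells 1 and 3.

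Monocytes and macrophages take up and digest particles, sense microbes and make reactive oxygen. Their development depends on signals through the receptor Csf1r and on the transcription factors PU.1 (Spi1) and Irf8. Early T-cell progenitors arrive with access to myeloid fates, and Notch signals together with Bcl11b close that access as the cells commit. OP9 cells come from a mouse that lacks functional M-CSF (Csf1), the main ligand of Csf1r, and so give poor support to macrophages. Among the 10 genes, Csf1r is the receptor. Ly86 (MD-1), Cd300a and Irf8 stand for surface regulation and control of the program. Mpeg1 (a pore-forming protein), Lyz2 (lysozyme), Cybb (the gp91 subunit of the phagocyte oxidase), the protease cathepsin S (Ctss) and its inhibitor cystatin C (Cst3) stand for killing and digestion, and Tgfbi for secreted matrix protein.

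PU.1, the ETS-family factor that many myeloid promoters bind, recognises a core that can be written GAGGAA, or TTCCTC on the other strand. RefSeq promoters on GRCm38.p6, from 250 bases before to 50 bases after a gene start, were at hand for 9 of the 10 genes, 10 windows in all. The core was in 4 of those windows (Cd300a, Cst3, Ctss and Cybb), against 28.3% of all 32851 promoters of that length. The windows of 4 genes are shown 5′ to 3′ on the gene's strand with the core in capitals on either strand, because the genes behave differently in what follows. Cells were grouped by marker lists of other cell types, with no group for monocytes and macrophages. Among these groups, Cybb and Lyz2 peaked in cells with neutrophil genes. Ctss peaked in cells with genes of dendritic cells and MHC class II, and Cst3 in stromal cells.

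Cybb (chrX:9469275-9469574, minus strand): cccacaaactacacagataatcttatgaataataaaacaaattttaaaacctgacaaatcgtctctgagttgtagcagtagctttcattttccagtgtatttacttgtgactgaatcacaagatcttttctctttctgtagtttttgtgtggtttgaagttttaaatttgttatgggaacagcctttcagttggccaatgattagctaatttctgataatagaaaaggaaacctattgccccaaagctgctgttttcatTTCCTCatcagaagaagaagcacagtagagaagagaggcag
Lyz2 (chr10:117282223-117282522, minus strand): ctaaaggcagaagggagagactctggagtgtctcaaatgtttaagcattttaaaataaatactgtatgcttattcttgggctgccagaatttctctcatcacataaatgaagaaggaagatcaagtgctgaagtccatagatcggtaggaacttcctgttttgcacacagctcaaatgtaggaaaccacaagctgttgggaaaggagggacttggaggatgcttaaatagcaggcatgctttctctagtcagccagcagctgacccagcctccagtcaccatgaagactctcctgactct
Ctss (chr3:95526536-95526835, plus strand): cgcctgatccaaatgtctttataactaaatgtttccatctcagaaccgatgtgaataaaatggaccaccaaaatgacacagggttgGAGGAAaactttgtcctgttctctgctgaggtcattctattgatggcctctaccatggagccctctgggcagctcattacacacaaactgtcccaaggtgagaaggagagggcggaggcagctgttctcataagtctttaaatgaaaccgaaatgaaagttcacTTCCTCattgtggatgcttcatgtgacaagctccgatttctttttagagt
Cst3 (chr2:148875463-148875762, minus strand): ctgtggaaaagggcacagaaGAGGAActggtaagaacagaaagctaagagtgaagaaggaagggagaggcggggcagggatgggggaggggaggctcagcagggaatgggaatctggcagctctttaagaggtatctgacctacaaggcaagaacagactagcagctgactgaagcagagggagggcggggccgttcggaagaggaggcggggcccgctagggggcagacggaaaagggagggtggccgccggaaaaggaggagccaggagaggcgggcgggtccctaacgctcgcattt

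The Ctss window held 2 copies, Cybb and Cst3 held 1 each, and Lyz2 held none. A match of these letters is a description of the window and says nothing on whether the factor was bound in these cells.

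The first comparison asked how the genes differed between cultures started at DN1 and at DN2a. Of the 10 members, 9 were more than 2-fold higher after the DN1 start in both genotypes, from the receptor Csf1r to the digestive genes, and the exception was Cst3. Levels are given as UMIs per 1000000 UMIs of the kept cells (CPM). Among all genes with at least 20 UMIs over the 2 libraries and a UMI in at least 15 cells, 1.77% were more than 2-fold higher from DN1 in WT and 2.09% in ΔTE. The median log2 ratio of the 10 members was 3.11 in WT and 2.34 in ΔTE, beside -0.16 and -0.01 over all genes counted. For the 9 members other than Cst3 the 3 DN1 wells all lay above the 3 DN2a wells in each genotype, where the background share of genes with such wells was 9.93% in WT and 11.1% in ΔTE. The sum of those 9 members was 216 CPM from WT DN1, 32.6 CPM from WT DN2a and 32.2 CPM from WT DN2b, and 219, 43.7 and 33.8 CPM in ΔTE.

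Csf1r, the receptor for M-CSF, was read at 22.2, 22.7 and 26.6 CPM in the 3 wells of WT DN1 and at 0.761, 1.17 and 1.67 CPM in those of WT DN2a. In ΔTE the DN1 wells gave 28.7, 28.8 and 32.4 CPM and the DN2a wells 3.39, 1.66 and 1.92 CPM. The groups of wells were far apart, and the log2 ratio of DN1 to DN2a was 4.31 (3.43 to 5.35) for WT cells and 3.56 (2.82 to 4.40) for ΔTE cells. Its summed UMIs fell from 145 over 11 to 1 along the 3 WT starts and from 176 over 16 to 0 along the 3 ΔTE starts. A count of 0 in ΔTE DN2b allows up to 1.75 CPM by the floor of 3 counts. The share of cells with a Csf1r UMI was 1.17% in WT DN1 and 1.48% in ΔTE DN1. Over all libraries, 5289 cells had UMIs of 2 or more T-cell genes and should lack Csf1r, 427 of them from WT DN1 and 363 from ΔTE DN1. Their share with a Csf1r UMI was 0.151%, at a median of 568 UMIs per cell against 462 in all WT DN1 cells and 485 in all ΔTE DN1 cells. Among all cells the share was 0.0564% in WT DN2a and 0.112% in ΔTE DN2a, so this contrast with DN1 is also one between starts.

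The genes for killing and digestion went the same way in different degrees. Cybb, the catalytic subunit of the oxidase, was at 22.8, 20.5 and 22.2 CPM in the wells of WT DN1 and at 0.761, 0.877 and 1.33 CPM in WT DN2a, a log2 ratio of 4.46 (3.49 to 5.62). In ΔTE its wells were at 24.7, 13.6 and 23.8 CPM from DN1 and 2.37, 1.66 and 2.56 CPM from DN2a, a log2 ratio of 3.24 (2.43 to 4.15). One DN1 well of ΔTE was low, and it still lay above every DN2a well. Mpeg1 had 43 UMIs from WT DN1 against 4 from WT DN2a, and 56 against 13 in ΔTE, with log2 ratios of 4.02 (2.56 to 5.96) and 2.21 (1.32 to 3.20).

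Lyz2 was the member with most UMIs after Cst3, and it kept a low level in every library. Its wells were at 55.5, 58.8 and 56.1 CPM in WT DN1 and 12.2, 11.1 and 3.67 CPM in WT DN2a, where well 3 was lower than the other 2. The log2 ratio of DN1 to DN2a was 2.66 (2.31 to 3.03) for WT cells and 2.21 (1.75 to 2.69) for ΔTE cells. Ctss, which cuts the invariant chain of MHC class II, was at 28.6, 23.3 and 21.0 CPM in the wells of WT DN1 and at 8.38, 7.01 and 5.33 CPM in WT DN2a. Its ratio was smaller than those of Csf1r or Cybb, with a log2 value of 1.80 (1.36 to 2.25) in WT and 1.87 (1.35 to 2.42) in ΔTE.

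Tgfbi, a secreted protein of the extracellular matrix, was read with 166 UMIs from WT DN1 and 27 from WT DN2a, and with 162 and 31 in ΔTE. Its log2 ratios were 3.21 (2.62 to 3.86) and 2.49 (1.92 to 3.09). Cd300a, an inhibitory receptor, was at 38.0, 23.8 and 31.9 CPM in the WT DN1 wells and 2.28, 3.21 and 3.67 CPM in the WT DN2a wells. The log2 ratio of Cd300a was 3.33 (2.76 to 3.96) for WT cells and 2.47 (1.99 to 2.97) for ΔTE cells. Ly86, which pairs with the Toll-like receptor relative Cd180, was one of the genes with fewest UMIs, at 37 against 7 in WT and 53 against 7 in ΔTE. Its log2 ratios were 3.00 (1.81 to 4.41) and 3.02 (1.88 to 4.40).

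Irf8, a transcription factor of monocyte and dendritic progenitors, showed the smallest difference of the 9. Its wells were at 21.0, 12.8 and 18.6 CPM in WT DN1 and 6.47, 7.89 and 7.33 CPM in WT DN2a, and at 22.4, 31.4 and 25.5 CPM and 10.8, 10.5 and 8.32 CPM in ΔTE. The wells did not overlap in either genotype, and the log2 ratios were 1.26 (0.81 to 1.73) and 1.38 (0.95 to 1.82). The WT value was 0.87, under 2-fold, when cells of any mitochondrial share were let in.

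**Figure D1:**
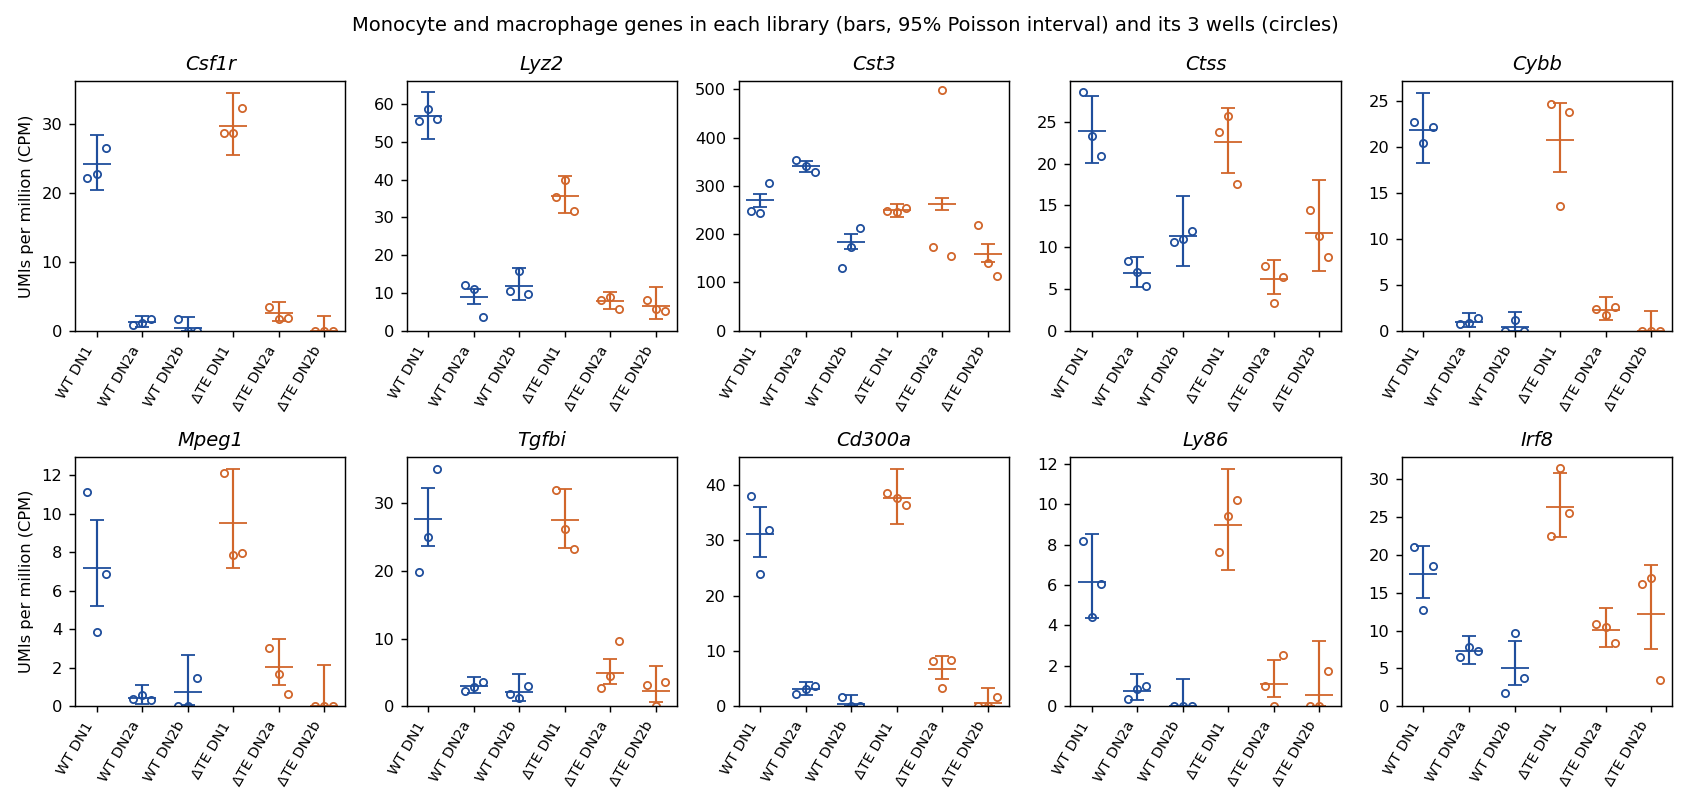
Levels in CPM (vertical axis, linear from 0, scaled to each gene) of the 10 genes in the 6 libraries (horizontal axis, WT in blue and ΔTE in orange). Horizontal bars are the whole library with its 95% Poisson interval and circles are its 3 wells; the library levels of 9 genes are higher in both DN1 libraries than in the other 4, while Cst3 reaches 498 CPM in 1 well of ΔTE DN2a.

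For 8 of the 9 members other than Cst3 in WT, and for all 9 in ΔTE, the share of cells with a UMI was higher from DN1 than from DN2a at equal depth, with intervals that did not overlap. When each cell was thinned to 300 UMIs, leaving out 1266 shallower cells of WT DN1 and 4723 of WT DN2a, a Csf1r UMI was seen in 0.745% (0.584 to 0.938) of WT DN1 cells and 0.0271% (0.00738 to 0.0693) of WT DN2a cells. In ΔTE, where 1010 and 1471 cells were left out, it was seen in 0.862% (0.684 to 1.07) and 0.109% (0.0543 to 0.194). The exception was Irf8 in WT, at 0.456% (0.331 to 0.611) of DN1 cells and 0.244% (0.171 to 0.337) of DN2a cells, intervals that overlap.

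Genes of other cell types moved with the members. The 12 neutrophil genes summed to 120 CPM in WT DN1, with wells between 113 and 127 CPM, and to 5.64 CPM in WT DN2a, with wells between 4.33 and 6.85 CPM. In ΔTE they summed to 65.4 and 7.75 CPM. All 6 neutrophil genes counted in WT were more than 2-fold higher from DN1, as were 6 of 7 in ΔTE. The granule and late genes Retnlg and Ly6g had 0 or 1 UMI in every library, and most of the neutrophil UMIs from DN1 were of S100a9, S100a8 and Ngp. The 16 genes of dendritic cells and MHC class II summed to 538 CPM from WT DN1 and 578 CPM from WT DN2a, of which Tcf4 and Bst2 held most. Of 10 counted in WT, 7 were more than 2-fold higher from DN1, and 7 of 12 in ΔTE. Cd209a had 0 UMIs in every library and Siglech 0 or 1. The 7 genes of granulocyte-monocyte progenitors summed to 587 CPM and 343 CPM. Of these, 4 of 7 were more than 2-fold higher from DN1 in WT and 3 of 5 in ΔTE. Without cells with 2 or more neutrophil genes, 9 members were past 2-fold from DN1 in each genotype. The part of cells with the dendritic and progenitor genes was not tested.

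Cst3, the cystatin that inhibits cathepsins, was the exception and carried 8593 of the members' UMIs, or 72.2%. It was at 247, 243 and 305 CPM in the wells of WT DN1 and at 353, 340 and 328 CPM in those of WT DN2a, so that every DN2a well lay above every DN1 well, with a log2 ratio of -0.33 (-0.42 to -0.25). In ΔTE the DN1 wells were at 249, 246 and 253 CPM and the DN2a wells at 173, 498 and 154 CPM. The wells overlapped there, and the log2 ratio was -0.07 (-0.17 to 0.03).

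Cst3 was high in stromal cells and in cells with UMIs of other members. Over all libraries it was at 1255 CPM (1206 to 1304) in the 2950 cells with 3 or more stromal genes and at 201 CPM (196 to 206) in the 53442 cells with none. In the 423 cells with UMIs of 2 or more other members Cst3 was at 1636.5 CPM. Those cells held 5.11% of its UMIs, and 2 of them had 3 or more stromal genes. In well 2 of ΔTE DN2a, the well with 12.6% stromal cells, it was at 498 CPM in all cells and at 244 CPM in cells with no stromal gene, against 146 and 139 CPM in such cells of wells 1 and 3. In cells of that well with 2 or more T-cell genes and no stromal gene it was at 214 CPM (147 to 300), against 140 CPM (102 to 188) and 151 CPM (100 to 218) in the same cells of wells 1 and 3. Among cells with no stromal gene the log2 ratio of DN1 to DN2a was 0.42 in WT, where its sign turned. It was 0.53 in ΔTE, where the interval over all cells had included 0. Without stromal genes, well 2 of ΔTE DN2a, at 244 CPM, still lay among the ΔTE DN1 wells, which were at 243, 242 and 245 CPM.

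**Figure D2:**
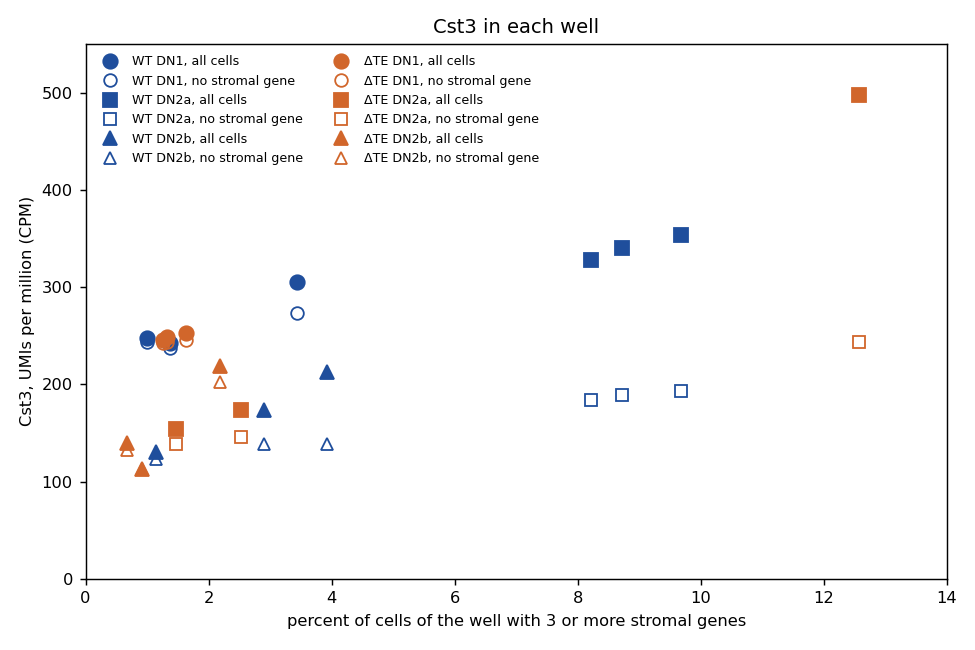
Cst3 in each of the 18 wells, in CPM (vertical axis, linear), against the percent of the well's cells with 3 or more stromal genes (horizontal axis). Filled symbols are all kept cells and open symbols cells with no stromal gene; the well of ΔTE DN2a with 12.6% stromal cells has the top value, 498 CPM, and falls to 244 CPM without cells that have a stromal gene.

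Cst3 was at 181 CPM in cells with T-cell genes and at 198 CPM in cells with ILC and NK genes. It was at 179 CPM in cells with genes of mast cells, basophils and megakaryocytes. In T-cell-gene cells with no stromal gene, wells ranged from 22.1 CPM (ΔTE DN2b well 3, 2 UMIs) to 267 CPM (WT DN1 well 2). Free RNA in the suspension, or RNA made at a low level in every cell, cannot be told apart from these values. Cst3 was far higher, at 851 CPM (788 to 919), in cells with 2 or more genes of dendritic cells and MHC class II. Cells with stromal genes were not taken out of any of these groups set by marker lists, and their part in the group levels was not tested.

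The second comparison set DN2a against DN2b starts, on the 2 sides of Bcl11b reporter expression. Here the members had few UMIs and only 6 of the 10 could be counted in each genotype. Of these 6, 1 was more than 2-fold higher from DN2a in WT (Cd300a) and 2 in ΔTE (Cd300a and Tgfbi), beside a background of 9.59% and 8.47% of genes. No member was more than 2-fold lower. The share of all genes lower is not given here, so that count is read no further. Cd300a had 28 UMIs against 1 in WT and 43 against 1 in ΔTE, with log2 ratios of 3.08 (0.48 to 8.43) and 3.55 (0.99 to 8.88). With a limit of 15% mitochondrial UMIs the WT value was -0.36, on 15 against 1 UMI. The Tgfbi value in ΔTE, 1.07 (-0.43 to 3.04), rests on 31 against 4 UMIs, and its interval includes 0.

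Ctss went the other way. It was at 8.38, 7.01 and 5.33 CPM in the wells of WT DN2a and at 10.6, 10.9 and 11.9 CPM in those of WT DN2b, and at 7.80, 3.32 and 6.40 CPM against 14.5, 11.3 and 8.84 CPM in ΔTE. The DN2a wells all lay below the DN2b wells in both genotypes, which 3.85% of genes did in WT and 4.75% in ΔTE. The log2 ratio of DN2a to DN2b was -0.73 (-1.37 to -0.06) for WT cells and -0.92 (-1.73 to -0.06) for ΔTE cells. The ΔTE value of Ctss changed sign, to 0.19, with at most 15% mitochondrial UMIs. Ctss was also seen in cells with ILC and NK genes, at 13.1 CPM (9.81 to 17.2), and in cells with T-cell genes, at 7.32 CPM (4.78 to 10.7).

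For Lyz2 and Irf8 the intervals of the ratio of DN2a to DN2b included 0 in both genotypes. Lyz2 was at 11.7 CPM (8.01 to 16.5) from WT DN2b and 8.95 CPM (7.11 to 11.1) from WT DN2a. These levels were close to the 7.60 CPM (5.01 to 11.1) of Lyz2 in cells with T-cell genes. Csf1r, Cybb, Mpeg1 and Ly86 had 0 to 2 UMIs each in the DN2b libraries and were too sparse to count.

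The third comparison, of ΔTE with WT within each start, asked whether loss of the enhancer went with a different level of these genes. From DN1, none of the 10 members was past 2-fold, where the background was 0.821% of genes higher and 1.69% lower in ΔTE, and their median log2 ratio was 0.13 beside -0.00 over all genes counted. The sum of the 9 members other than Cst3 had intervals of 205 to 228 CPM in WT and 207 to 231 CPM in ΔTE, which overlap. For 2 members the ΔTE wells all lay above the WT wells (Csf1r and Irf8) and for 1 all below (Lyz2), beside a background of 8.24% of genes in each direction.

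Lyz2 was at 35.5, 39.8 and 31.8 CPM in the wells of ΔTE DN1, against 55.5, 58.8 and 56.1 CPM in WT DN1, a log2 ratio of -0.67 (-0.92 to -0.41). The sum of neutrophil genes was lower in ΔTE DN1 as well, at 65.4 against 120 CPM, with 311 against 137 UMIs of S100a9 and 193 against 67 UMIs of S100a8 in WT and ΔTE. Cells with 2 or more neutrophil genes numbered 55 in WT DN1 and 28 in ΔTE DN1 and held 37 of 340 and 14 of 211 Lyz2 UMIs. Without those cells the log2 ratio of Lyz2 was -0.60. Irf8 was at 22.4, 31.4 and 25.5 CPM in ΔTE DN1 and at 21.0, 12.8 and 18.6 CPM in WT DN1, a log2 ratio of 0.59 (0.22 to 0.96). Csf1r was higher by a log2 ratio of 0.30 (-0.02 to 0.63), an interval that includes 0.

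From DN2a, 3 of the 8 members that could be counted were more than 2-fold higher in ΔTE, beside 1.10% of genes, and none was more than 2-fold lower, beside 4.00% of genes. They were Csf1r with 16 against 11 UMIs (log2 ratio 1.06, -0.14 to 2.31), Cybb with 14 against 9 (1.16, -0.16 to 2.54) and Cd300a with 43 against 28 (1.14, 0.42 to 1.88). The intervals of Csf1r and Cybb include 0. Without well 1 of ΔTE DN2a, or without well 1 of WT DN2a, 1 member was left past 2-fold. Mpeg1 had 13 against 4 UMIs and was too sparse to count. The wells of Cybb and Irf8 did not overlap between the genotypes, as for 2.92% of genes, while those of Csf1r and Cd300a did. The 9 members other than Cst3 summed to 43.7 CPM (38.7 to 49.1) in ΔTE DN2a, with wells between 35.4 and 47.5 CPM, and to 32.6 CPM (29.0 to 36.5) in WT DN2a, with wells between 28.0 and 35.7 CPM. WT DN2a is the library with the low mitochondrial share and the most stromal cells. With no mitochondrial limit 1 member was past 2-fold, with log2 ratios of 0.81 for Csf1r, 1.10 for Cybb and 0.89 for Cd300a. With at most 15% mitochondrial UMIs 1 member that could be counted was past 2-fold. Without cells with 3 or more stromal genes the log2 ratios were 1.17 for Csf1r, 1.44 for Cybb and 1.07 for Cd300a.

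From DN2b, 4 members could be counted. Irf8 was more than 2-fold higher in ΔTE, with 21 against 14 UMIs (log2 ratio 1.26, 0.21 to 2.34), beside 1.74% of genes, and none was more than 2-fold lower, beside 3.64% of genes. Its wells, 16.1, 17.0 and 3.54 CPM in ΔTE against 1.76, 9.72 and 3.73 CPM in WT, overlapped. Irf8 was no longer past 2-fold with 300 or more genes per cell, or without well 1 or well 2 of ΔTE DN2b or well 3 of WT DN2b, and its log2 ratio ranged from 0.92 to 1.96 with a well left out. It was too sparse to count with at most 15% mitochondrial UMIs or with 50 or more UMIs required.

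**Figure D3:**
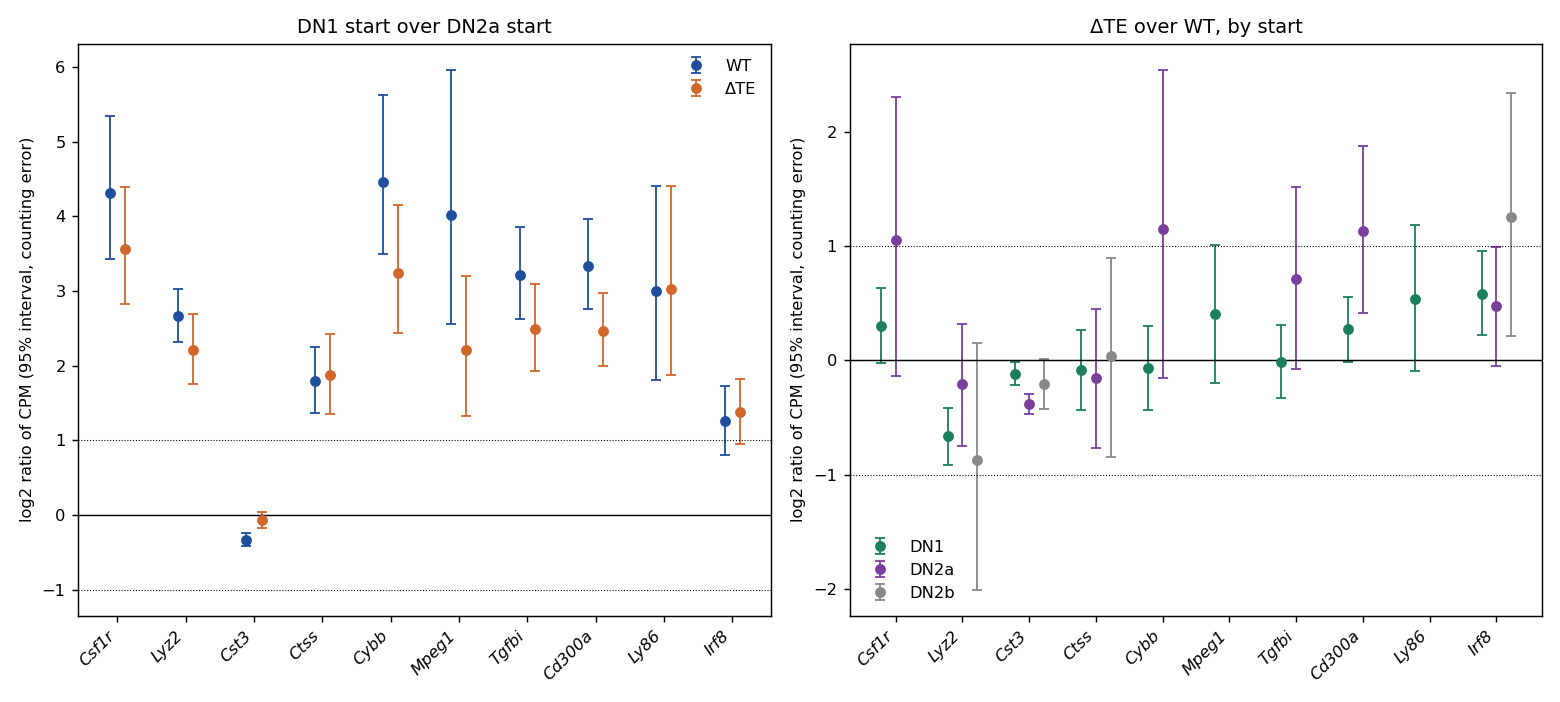
Log2 ratios of CPM (vertical axis) of the genes (horizontal axis) with 95% exact intervals for counting error; the left panel sets DN1 over DN2a starts in WT and ΔTE, the right panel ΔTE over WT for each start, and dotted lines mark 2-fold. Members with under 20 UMIs over the 2 libraries are left out; on the left all genes but Cst3 lie above 1, on the right no DN1 value passes 2-fold.

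Each member was higher in cells that held UMIs of other members. For each gene, cells were chosen by the other 9 members, and its level was read in cells with 2 or more of them and in cells with none. Over all libraries the level was higher in the former for each of the 10 genes. The log2 ratio was 7.81 (7.09 to 8.60) for Mpeg1, 7.23 (6.87 to 7.60) for Tgfbi, 6.81 (6.09 to 7.57) for Ly86 and 6.79 (6.37 to 7.21) for Cybb. It was 5.99 for Lyz2, 5.74 for Csf1r, 5.44 for Ctss and 5.33 for Cd300a, and lower for Irf8 at 4.26 (3.88 to 4.63) and for Cst3 at 2.69 (2.55 to 2.83). Most of these cells came from the DN1 libraries. Within WT DN1 alone the log2 ratio ranged from 2.77 (Cst3) to 7.25 (Mpeg1), and within ΔTE DN1 from 3.15 (Cst3) to 7.33 (Mpeg1).

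The genes differed in how much of their RNA those cells held. Cells with 2 or more other members held 66.9% of the Mpeg1 UMIs, 55.6% of Tgfbi, 50.4% of Cybb and 46.7% of Ly86, although they were 1.06% to 1.15% of all cells. They held 37.5% of Csf1r, 35.05% of Ctss, 30.5% of Cd300a, 18.4% of Irf8 and 5.11% of Cst3. Of the Irf8 UMIs, 60.9% lay in cells with no other member, and of the Cst3 UMIs 89.8%.

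**Figure D4:**
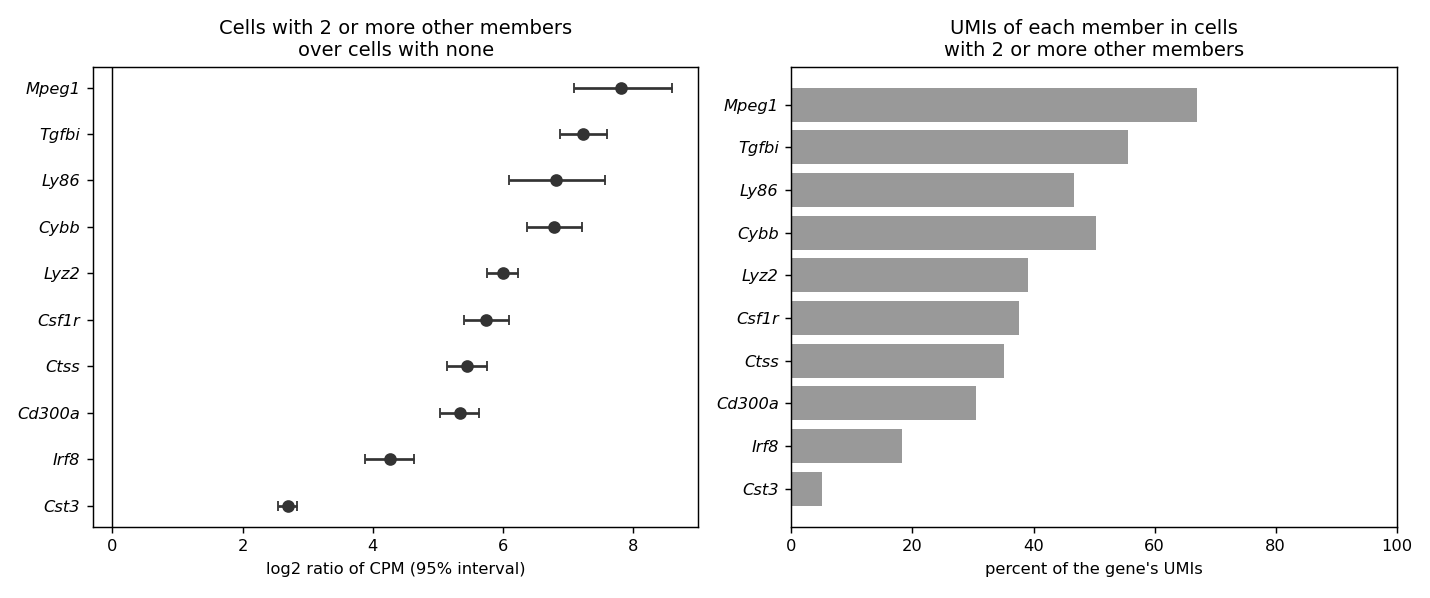
Left, log2 ratio of CPM (horizontal axis, 95% exact interval) of each gene (vertical axis) in cells with UMIs of 2 or more other members over cells with none; right, percent of the gene's UMIs found in the former cells. The ratio runs from 7.81 for Mpeg1 down to 2.69 for Cst3, and the share from 66.9% down to 5.11%.

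Because Cst3 is shared with stroma, cells were counted by the other 9 members. Cells with 2 or more of the 9 numbered 184 of 10925 in WT DN1, or 1.68% (1.45 to 1.94), with wells between 1.49% and 1.91%. In WT DN2a they numbered 10 of 19489, or 0.0513% (0.0246 to 0.0943), and in WT DN2b 2 of 4968. In ΔTE they numbered 202 of 10294 from DN1, or 1.96% (1.70 to 2.25), 25 of 11594 from DN2a, or 0.216% (0.140 to 0.318), and 0 of 3401 from DN2b, which by the floor of 3 counts allows a share of up to 0.0882%. The DN1 shares of the genotypes overlapped in their wells, while the wells of DN2a, at 0.0171% to 0.0825% in WT and 0.129% to 0.323% in ΔTE, did not. When each cell was thinned to 300 UMIs the DN2a shares were 0.0271% (0.00738 to 0.0693) in WT and 0.0988% (0.0474 to 0.182) in ΔTE, on 4 and 10 cells, and the intervals overlapped. The median depth was 386 UMIs per cell in WT DN2a and 452 in ΔTE DN2a.

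What kind of cell held the members was read from lists of other genes. In cells with 2 or more of the 10 members (718 cells), 24 of 27 other genes of a monocyte and macrophage list were more than 2-fold higher than in cells with none (52706 cells), and 8 of 8 neutrophil genes and 9 of 12 genes of dendritic cells and MHC class II, beside 1757 of 12793 genes overall. Of 10 T-cell genes, 8 were more than 2-fold lower, beside 870 of 12793 genes overall. The stromal list was higher in 9 of 16 genes. Of the 718 cells, 291 were from WT DN1 and 300 from ΔTE DN1, and of the 52706 cells 9164 and 8687. The counts by list and the ratios of the next paragraph pool all libraries and were not made within a library. They therefore also hold differences between the starts. When Cst3 was left out of the choice of cells, 0 of 16 stromal genes were higher and 10 were lower, while 24 of 28 monocyte and macrophage genes and 8 of 8 neutrophil genes were higher, beside 1530 higher and 1451 lower of 13111 genes overall.

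Of 2155 genes with at least 50 UMIs in those cells, the 15 with the highest ratio included the antigen-presentation genes H2-Ab1, H2-Aa, H2-Eb1, Cd74 and their activator Ciita, with log2 ratios from 5.95 (Ciita) to 6.82 (Cd74). Zfp366, a dendritic-cell transcriptional regulator, led with 7.58 (6.80 to 8.42). Adgre1, the macrophage antigen F4/80, stood at 6.04 (5.46 to 6.63) and the inhibitory receptor Sirpa at 5.06. The cathepsin Ctsh, at 5.79, and Ms4a4c, Pstpip2 and Ctnnd2, at 7.16, 5.44 and 5.21, were also among them. The neutrophil granule gene Ngp and the calprotectin subunit S100a8 were at 5.42 and 5.36, with UMIs in 11 and 26 of the 718 cells. Of the 423 cells with 2 or more of the 9 members other than Cst3, 18 had 2 or more neutrophil genes. Among the same 423 cells, 104 had 2 or more genes of dendritic cells and MHC class II. Genes of macrophages, dendritic cells and neutrophils were all present over the pooled cells, the neutrophil genes in few of them, and the cells were given no single cell type. The F4/80 gene Adgre1 was at 10.0 CPM in WT DN1 and 8.65 CPM in ΔTE DN1, and at 1.17 to 1.58 CPM in the 4 other libraries.

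Groups of cells set by these lists separated the members. In the 84 cells with 2 or more neutrophil genes, Lyz2 was at 1040 CPM (777 to 1364) and Cybb at 780 CPM (555 to 1066), on 52 and 39 UMIs, while Ctss had 1 UMI. In the 1038 cells with 2 or more genes of dendritic cells and MHC class II, Lyz2 was at 69.0 CPM (51.9 to 90.1) and Cybb at 63.9 CPM (47.4 to 84.3), and Ctss was at 98.4 CPM (77.7 to 123). That list also holds Tcf4 and Bst2, so a cell could enter the group without a UMI of MHC class II. Csf1r, at 60.1 CPM (44.2 to 79.9) in these 1038 cells and on 4 UMIs in the 84 cells with neutrophil genes, had overlapping intervals in the 2 groups. In the 920 cells with 2 or more genes of granulocyte-monocyte progenitors, Csf1r was at 27.8 CPM (17.0 to 43.0), Lyz2 at 30.6 CPM and Irf8 at 32.0 CPM (20.3 to 48.0), and Mpeg1 had 1 UMI.

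Cells with genes of mast cells, basophils and megakaryocytes (775 cells) had 0 UMIs of Csf1r, Cybb, Mpeg1 and Tgfbi, which allows up to 4.88 CPM. In cells with T-cell genes (5289 cells) Cybb was at 0.844 CPM (0.174 to 2.47) and Mpeg1 at 0.281 CPM (0.00712 to 1.57), against 7.32 CPM (4.78 to 10.7) of Irf8. At least 2 of the 9 members were found in 33 of the 258 WT DN1 cells with genes of dendritic cells and MHC class II, and in 11 of the 55 with neutrophil genes.

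**Figure D5:**
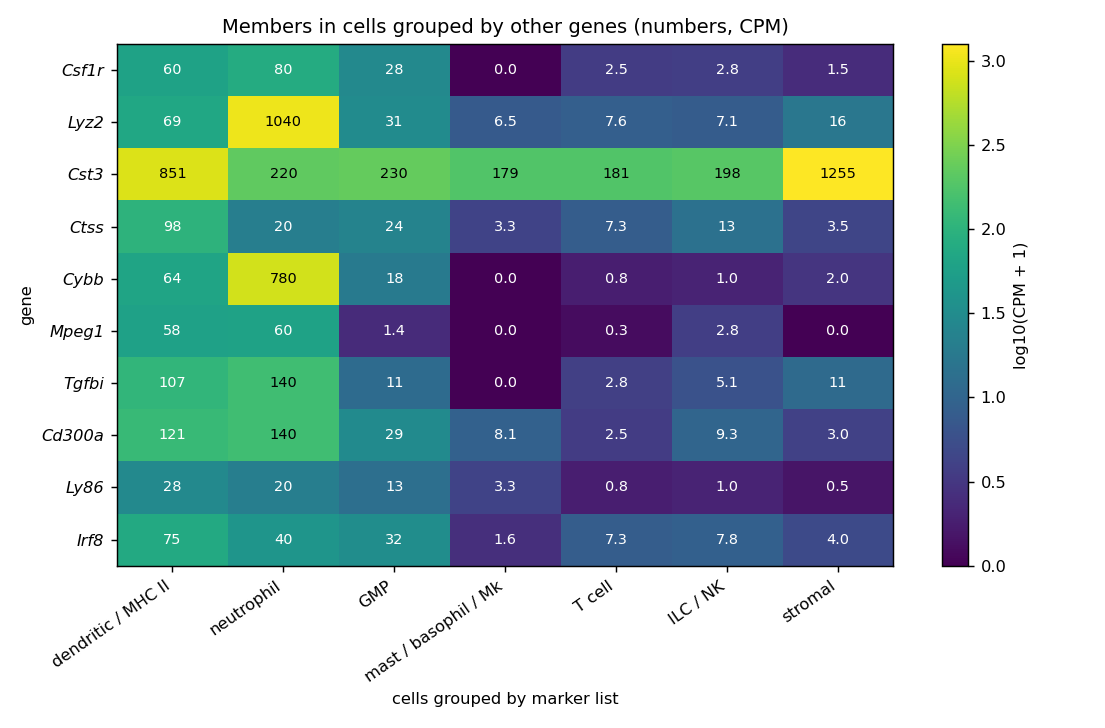
CPM (numbers in the cells; colour is log10 of CPM + 1) of each gene (rows) in kept cells of all libraries grouped by UMIs of 2 or more genes of a marker list, 3 or more for the stromal list (columns; GMP, granulocyte-monocyte progenitor; Mk, megakaryocyte). No column was set by monocyte and macrophage genes. Among the columns shown, Lyz2 and Cybb peak in cells with neutrophil genes, Ctss in cells with dendritic and MHC class II genes, and Cst3 in stromal cells.

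The proteins that work with the members were read from a list of 17 partners. None of 16 counted was more than 2-fold higher from DN1 than from DN2a in either genotype, while 2 in WT and 1 in ΔTE were more than 2-fold lower. Here and for the lists below, the share of all genes lower from DN1 is not given, and the counts lower are read no further. Cybb was more than 2-fold lower from DN2a than from DN1, while its membrane partner in the oxidase, Cyba, was at 171 and 164 CPM in WT DN1 and DN2a, a log2 ratio of 0.06 (-0.05 to 0.18), and the cytosolic Ncf4 had a log2 ratio of 0.18 (-0.13 to 0.49). Ncf1 had 0.74 (0.51 to 0.97). Rac2, the small GTPase of the complex, was at 261 and 310 CPM. Cd180, which Ly86 accompanies to the cell surface, was at 78.7, 42.4 and 14.6 CPM along the WT starts and 72.7, 37.8 and 6.99 CPM along the ΔTE starts, so that it was lower at each later start.

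Of the ligands of Csf1r, Csf1 was at 14.8, 46.6 and 17.6 CPM along the WT starts and 7.12, 25.0 and 8.74 CPM along the ΔTE starts, the order of the stromal genes, which summed to 604, 2426 and 890 CPM in WT and 332, 1444 and 440 CPM in ΔTE. Il34 had at most 12 UMIs in a library. Among the cathepsins, Ctsl was more than 2-fold lower from DN1 than from DN2a in WT, with a log2 ratio of -1.52 (-1.92 to -1.14), and had -0.997 (-1.47 to -0.54) in ΔTE. Ctsb had -0.85 (-0.999 to -0.70) in WT. Ctsd was at 309, 399 and 309 CPM along the WT starts and Ctsz at 111, 122 and 73.9 CPM. The part of stromal cells in these values was not tested.

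Among 15 transcription factors, 2 of 14 counted were more than 2-fold higher from DN1 in WT and 3 of 14 in ΔTE, and 4 and 1 were more than 2-fold lower. Spi1, which encodes PU.1, was at 72.2, 32.5 and 15.4 CPM along the WT starts and at 67.6, 24.7 and 9.32 CPM along the ΔTE starts, with log2 ratios of DN1 to DN2a of 1.15 (0.94 to 1.37) and 1.45 (1.18 to 1.73). It was lower at each later start in both genotypes. Maf was higher at each later start, at 25.9, 57.6 and 95.9 CPM in WT and 20.7, 66.3 and 186 CPM in ΔTE. Zeb2 was at 235, 185 and 136 CPM in WT and 194, 132 and 61.1 CPM in ΔTE, and Runx1 was between 1086 and 1630 CPM in all libraries.

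The wider monocyte and macrophage list did not move as a block. Of its 26 genes counted in WT, 11 were more than 2-fold higher from DN1 and 4 lower, and in ΔTE 6 and 4 of 23, with median log2 ratios of 0.63 and 0.55. Its genes with most UMIs are shared with other lineages. Plac8 was between 379 and 669 CPM in all libraries. Fn1, a matrix protein of stroma as well as of monocytes, was at 48.5, 234 and 79.8 CPM along the WT starts. Fcer1g and Tyrobp, adaptor chains of myeloid and of NK receptors, were higher in ΔTE from every start. The log2 ratios of ΔTE to WT from DN1, DN2a and DN2b were 0.78 (0.65 to 0.92), 1.24 (1.13 to 1.36) and 2.15 (1.84 to 2.47) for Fcer1g. For Tyrobp they were 0.40 (0.27 to 0.53), 0.62 (0.47 to 0.78) and 2.62 (2.04 to 3.24). Fcer1g was at 42.5 CPM in WT DN2b and 189 CPM in ΔTE DN2b, and Tyrobp at 11.3 and 69.9 CPM, while Csf1r, Cybb and Mpeg1 had 0 UMIs in ΔTE DN2b. The 14 ILC and NK genes summed to 968, 1311 and 1169 CPM along the WT starts and 1443, 2177 and 2310 CPM along the ΔTE starts, and their part in these values was not tested.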

How the data were processed

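RNA was measured by sci-RNA-seq3 in cells that the methods describe as fixed, while the labels give the molecule as nuclear RNA; which of these the UMIs come from was not settled and bears on levels and mitochondrial shares. The assay is a combinatorial indexing method in which 1 part of each barcode names the reverse-transcription well. What the authors deposited are raw UMI counts per gene and barcode, not normalized and with all barcodes included; the submitters' processing notes name the genome build mm9, and the aligner is not given in the sources used here. Cells were filtered at the limits of the study's methods (200 genes or more, up to 2000 UMIs, up to 30% mitochondrial UMIs), and no doublet caller was used.

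UMIs were summed per library and well and divided by the UMIs of all kept cells (CPM). Genes were counted in a comparison if they had at least 20 UMIs over the 2 libraries and a UMI in at least 15 cells, and were called past 2-fold. Ratios carry exact conditional binomial intervals, levels exact Poisson intervals and shares Clopper-Pearson intervals, all at 95% and for counting error only (Python 3.11.15, numpy 2.4.6, scipy 1.17.1, pandas 2.3.3). A side at 0 was set to a floor of 3 UMIs, which gives a bound. Cells were grouped by UMIs of 2 or more genes of a list, or 3 or more for stroma. The text names the 10 members, partners, the 15 genes most raised in cells with 2 or more members and up to 4 genes per list with the most UMIs; some of these are not reported here. TMM factors were from edgeR 4.0.16 (R 4.3.3). The interval code was tested on simulated data. The members and lists were chosen with earlier results of these data known. Promoters are from RefSeq on GRCm38.p6, and gene coordinates on mm9 were not used here.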

Additional observations from a re-analysis of the deposited data

Results flagged for a closer look

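Signal of the members was present in barcodes that the filters take out, above the limit that a count of 0 allows. Over the cells with more than 30% mitochondrial UMIs, the 9 members other than Cst3 were at 118, 34.3 and 21.7 CPM along the WT starts DN1, DN2a and DN2b, and at 82.8, 31.9 and 24.0 CPM along the ΔTE starts, so that the DN1 libraries were again the highest, while their level was below the 216 and 219 CPM of the kept DN1 cells. The WT DN2a value rests on 10 UMIs. Over the cells with more than 2000 UMIs, the same sum was at 189, 57.8 and 38.0 CPM along the WT starts and at 128 and 33.3 CPM in ΔTE DN1 and DN2a, and the 15 such cells of ΔTE DN2b held 0 UMIs.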

How the results depend on the processing

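No paired analysis was possible because each condition has 1 library and no replicate number. The 9 members past 2-fold from DN1 over DN2a numbered 7 to 9 in WT and 8 to 9 in ΔTE over all settings, and 9 with each well left out in turn. The lowest counts were at 15% mitochondrial UMIs or fewer and, in WT, also with 50 or more UMIs required. Of 806 log2 ratios under other settings, 751 stayed within the main interval, 54 moved out of it without a change of sign in a value past 2-fold, and 1 past 2-fold changed sign (Cd300a, WT DN2a over DN2b, -0.36 at 15% mitochondrial UMIs or fewer). Of all 1173 log2 ratios, wells left out included, 65 had the opposite sign to the main value, 58 of them where the main interval included 0. The other 7 were that of Cd300a, Ctss for ΔTE DN2a over DN2b (0.19 at 15% or fewer) and 5 of Cst3: WT DN1 over DN2a (0.32 without stromal cells and 0.42 in cells with no stromal gene), ΔTE DN2a over DN2b (-0.02 with no mitochondrial limit), and ΔTE over WT from DN1 (0.11 at 15% or fewer and 0.02 without well 3 of WT DN1). TMM factors were 1.11 for WT DN2a and 0.954 to 1.00 for the others. The settings without cells with neutrophil genes and with only cells that have no stromal gene were chosen after seeing the data. Other causes of change were not tested.

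For WT DN2a over DN2b, where 1 member was past 2-fold, the count was 3 with no filter on low counts, 0 with 50 or more UMIs required, 2 at 1.5-fold and 0 to 3 with a well left out (0 without well 2 or 3 of WT DN2a, 3 without well 3 of WT DN2b). For ΔTE DN2a over DN2b, with 2, it was 0 at 15% mitochondrial UMIs or fewer, 0 with 50 or more UMIs and 1 to 3 with a well left out. For ΔTE over WT from DN1, with none, it was 1 higher and 1 lower at 1.5-fold. From DN2a, with 3 higher and 0 lower, it was 1 higher with 300 or more genes, with no mitochondrial limit, at 15% or fewer and with 50 or more UMIs, and with a well left out 1 to 3 higher and 0 to 1 lower. With 300 or more genes and at 15% or fewer the log2 ratios of Csf1r, Cybb and Cd300a were above their main values, and members were lost because they were too sparse to count. From DN2b, with 1 higher and 0 lower, it was 0 higher with 300 or more genes, at 15% or fewer and with 50 or more UMIs, 1 lower with 300 or more genes and at 1.5-fold, and 0 to 1 in either direction with a well left out.

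The share of cells with 2 or more of the 10 members, main values 2.66%, 0.308% and 0.201% along the WT starts and 2.91%, 0.466% and 0.0882% along the ΔTE starts, was 1.199%, 0.0308%, 0.0403%, 1.28%, 0.129% and 0% for 3 or more members, 1.68%, 0.0513%, 0.0403%, 1.96%, 0.216% and 0% without Cst3, and 1.58%, 0.135%, 0.0906%, 1.52%, 0.188% and 0% in thinned cells. It was 0.197% in WT DN2a without stromal cells, and 0.404% in WT DN2b and 2.49% in ΔTE DN1 with no mitochondrial limit.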

Other observations

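Most positive cells held 1 UMI of a member. The mean number of UMIs per positive cell was 1.51 for Lyz2 and 1.32 for Cybb, against 1.10 to 1.25 for Csf1r, Ctss, Mpeg1, Tgfbi, Cd300a, Ly86 and Irf8. Cells with 3 or more Lyz2 UMIs numbered 59 and held 34.3% of its UMIs, and 1 cell held 9. For Cybb, 16 cells with 3 or more UMIs held 20.5%, and 1 cell held 7. Cd300a, seen in 432 cells, had 4 cells with 3 or more UMIs, and Ly86 had none.

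Pairs of members differed in how often they met in 1 cell. Of the 211 cells with a Cybb UMI, 61 also had Lyz2 and 57 had Tgfbi. Of the 305 cells with a Csf1r UMI, 55 had Tgfbi, 53 had Lyz2 and 50 had Ctss. Irf8 met Mpeg1 in 22 cells, of 385 with Irf8 and 100 with Mpeg1, and met Ly86 in 6.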
